A study of Mus musculus with 11 samples.

Results

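The RGS proteins and the beta-arrestins are the main brakes on signalling by G protein-coupled receptors. The 10 genes described here are 8 RGS genes (Rgs1, Rgs2, Rgs3, Rgs10, Rgs14, Rgs16, Rgs18 and Rgs19) and the 2 beta-arrestin genes (Arrb1 and Arrb2). They were chosen by symbol from the 52143 genes of the table, with earlier results of these data known. Their levels and differences are therefore descriptions, and no p-value is given for any of them. Where one of the 10 is said to have risen or fallen, its adjusted p in a limma fit of all 13711 sufficiently expressed genes lay under the threshold of 0.05. That fit asked for at least 1 TPM (a transcript level scaled to transcript length and to the library total) in at least 2 libraries. Of the 10 genes 9 passed this filter, and Rgs18 did not, with 1 library at or above 1 TPM.

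A trimeric G protein signals while its alpha subunit holds GTP. RGS proteins bind the active alpha subunit and speed up GTP hydrolysis, which ends the signal of the alpha and the beta-gamma subunits alike. Beta-arrestins bind receptors that have been phosphorylated by G protein-coupled receptor kinases, uncouple them from the G protein, take them into the cell and act as scaffolds for other signalling proteins. In macrophages these receptors include those for chemokines, complement fragments, prostaglandins and nucleotides. GIV (Girdin, the product of Ccdc88a) acts on the same switch from another side, since it binds inhibitory alpha subunits without a receptor and modulates their activity.

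The cells were RAW, a mouse macrophage-type line, carrying either a control hairpin (shC) or a hairpin that depletes GIV (shGIV). RNA came from cells without LPS, the bacterial lipopolysaccharide that Toll-like receptor 4 senses, or after 5 h at 100 ng/ml. Of 11 labelled samples 10 have a column: shC without LPS in sets 1, 2 and 3, shC with LPS in set 2, and shGIV at both times in sets 1, 2 and 3. The other shC sample with LPS, of set 3, was not analysed here. Whether a hairpin line is 1 clone or a pool, and what the sets stand for, is not given in the sources used here, so the error values measure only the spread between these libraries.

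The library of shC set 2 without LPS stood apart, with 57.8% of its TPM in the single gene Mir6236 against 3.79% to 8.78% in the other 9 libraries, and its values are kept out of the means and the fit. The 9 remaining libraries had 19795 to 21678 genes above 0, and their read depth is unknown because TPM keeps no totals. Ccdc88a was at 10.0 and 7.69 TPM in shC cells without LPS and at 5.31 to 6.93 TPM in shGIV cells (67.2% of the shC mean). With LPS it was at 5.77 TPM in shC and 2.62 to 3.39 TPM in shGIV cells (52.5%), and neither difference passed the threshold (limma adjusted p = 0.232 and 0.0681). All 4 transcripts that LPS is known to induce and that served as a check (Il1b, Il6, Tnf and Nos2) rose in both lines. All 8 macrophage markers lay at 1 TPM or more in each of the 9 libraries, and Lyz2 made up most of their sum. That sum was 19298 and 19775 TPM in resting shC and 18141 to 18694 TPM in resting shGIV libraries, and 14525 TPM in the stimulated shC and 12029 to 12611 TPM in the stimulated shGIV libraries, so the lines did not overlap at either time. The markers did not move as one with LPS. Lyz2, Csf1r and Cd68 were lower in every stimulated library than in the resting ones of the same line, and Adgre1, Itgam, Cd14 and Ptprc were higher. The part of these shifts in the results below was not tested. The 4 markers each of T cells, fibroblasts, epithelium and endothelium summed to at most 0.761, 0.230, 0.132 and 2.28 TPM, with Krt18 at 0 throughout. The endothelial sum was 0.583 to 0.918 TPM without LPS and 1.11 to 2.28 TPM with LPS. The only shC library with LPS is from set 2 and the shC libraries without LPS in the fit are from sets 1 and 3, so set and LPS cannot be told apart in that comparison.

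LPS moved these genes in opposite directions in both lines. Rgs16 and Rgs1 rose, while Arrb1, Rgs10 and Rgs2 fell. In shC cells 3 of the 9 tested genes rose (Rgs16, Rgs1 and Rgs14) and 4 fell (Arrb1, Rgs10, Rgs2 and Rgs19), where 14.8% of all tested genes rose and 44.1% fell (58.9% in either direction). In shGIV cells 2 rose (Rgs16 and Rgs1) and 6 fell (Arrb1, Rgs10, Rgs3, Rgs2, Rgs19 and Arrb2), against 15.8% and 59.7% of all tested genes (75.5% in either direction). The groups with and without LPS did not overlap for 9 of the 9 genes in either line, as for 87.5% of all tested genes in shC and 78.5% in shGIV cells. The genes were chosen with these responses known, so the counts say nothing about the family. The median log2 difference of the 9 genes was -0.42 in shC and -0.63 in shGIV cells, beside -0.40 and -0.54 over all tested genes. TMM scaling moves these 2 medians to 0, a shift of 0.40 and 0.54, so small falls are given below relative to the median as well. In bulk RNA more transcript per cell and more cells carrying it cannot be told apart.

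**Figure D1:**
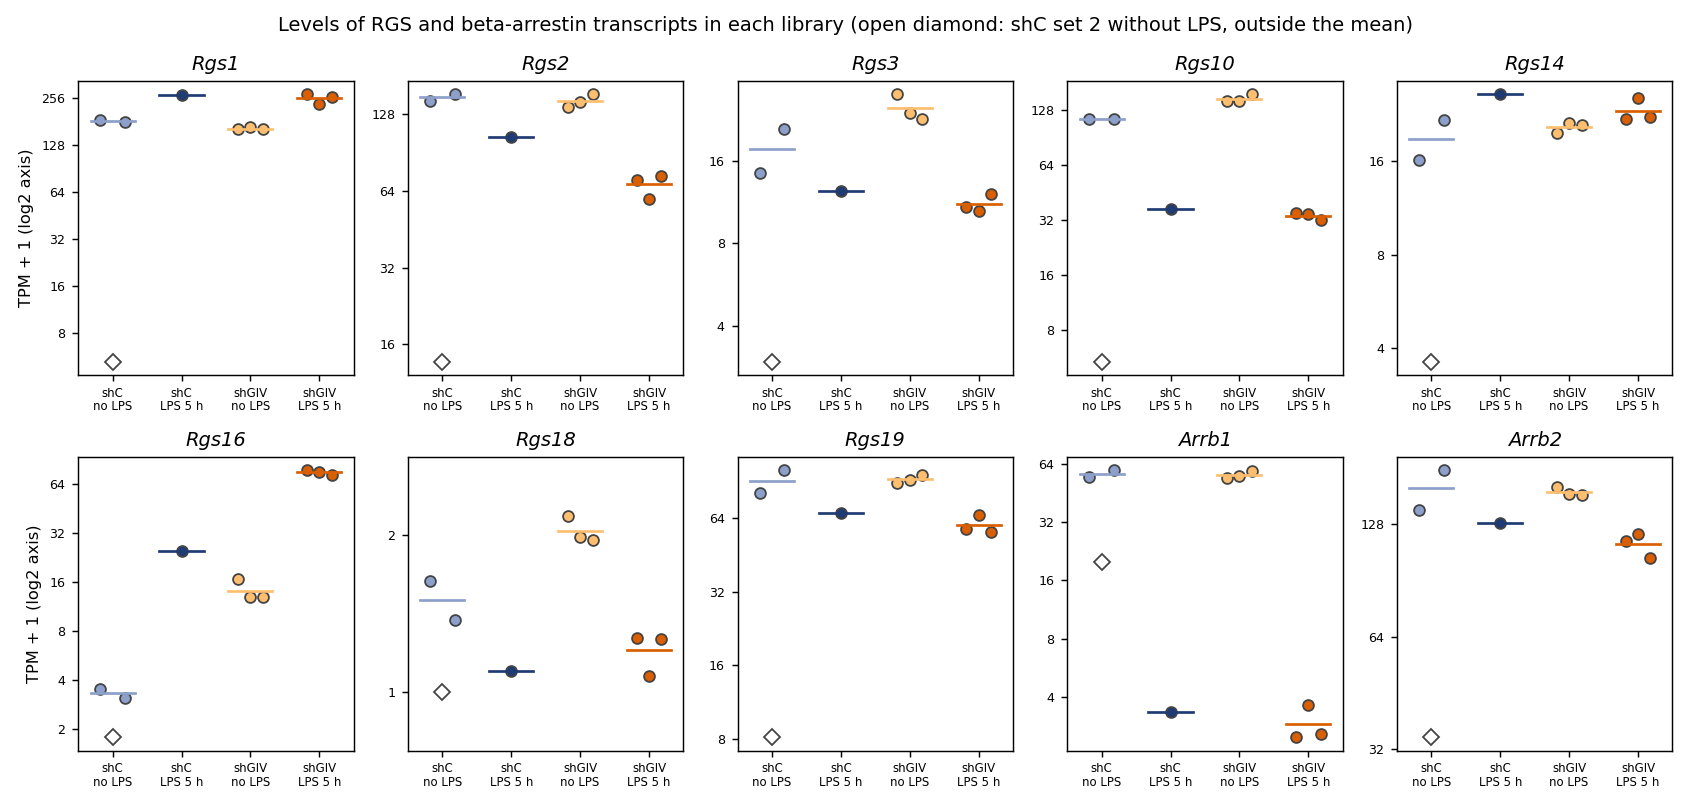
Each panel shows 1 gene, with TPM + 1 on a log2 axis and the 4 groups along the x axis. Filled points are the 9 libraries of the fit, horizontal lines their group means, and open diamonds the shC set 2 library without LPS. Rgs16 climbs from 2.13 to 2.54 TPM in resting shC cells to 71.7 to 77.1 TPM in stimulated shGIV cells, while Arrb1 drops to between 1.46 and 2.60 TPM with LPS.

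Rgs16 encodes a small RGS protein, little more than the RGS domain itself, that acts on inhibitory and Gq-type alpha subunits. The gene (ENSMUSG00000026475) lies on the plus strand of GRCm38 chromosome 1, from 153740349 to 153745468, with a single annotated transcript. Rgs2, which acts mainly on Gq-type alpha subunits, lies on the minus strand of the same chromosome (ENSMUSG00000026360, 143999338 to 144004161). RefSeq promoter sequences (GRCm38.p6) were at hand for 5 of the 10 genes. Those of Rgs16 and Rgs2 are shown because these genes moved in opposite directions with LPS and passed the threshold between the stimulated lines. For Rgs2 the second of these was kept in only 6 of 19 alternatives, and its fall in shC cells was lost with TMM scaling. Each sequence is the 250 bases before the RefSeq start, read along the gene's strand, chr1:153740103-153740352 for Rgs16 and chr1:144004150-144004399 for Rgs2.
Rgs16: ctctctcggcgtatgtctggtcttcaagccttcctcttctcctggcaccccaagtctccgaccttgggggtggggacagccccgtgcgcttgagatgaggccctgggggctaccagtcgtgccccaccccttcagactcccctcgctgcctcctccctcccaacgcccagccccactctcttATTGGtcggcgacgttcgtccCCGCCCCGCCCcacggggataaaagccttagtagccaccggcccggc
Rgs2: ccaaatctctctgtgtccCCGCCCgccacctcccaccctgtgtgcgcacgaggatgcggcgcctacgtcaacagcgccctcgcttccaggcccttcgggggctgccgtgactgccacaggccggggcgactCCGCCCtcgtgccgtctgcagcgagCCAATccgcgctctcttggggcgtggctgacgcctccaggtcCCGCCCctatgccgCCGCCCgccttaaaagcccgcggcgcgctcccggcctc
Capitals mark matches, on either strand, to the CCAAT box (CCAAT, in 33.8% of all 32851 RefSeq promoter windows over the same 250 bases) and to the GC box (GGGCGG, in 32.7%). Rgs16 has 1 CCAAT box and 2 GC boxes that overlap by a base, and Rgs2 has 1 CCAAT box and 4 GC boxes. The NF-kB motif (7.25% of windows), the interferon-stimulated response element (2.98%), the AP-1 motif TGANTCA (6.75%) and the cyclic AMP motif TGACGTCA (1.55%) have no match in these letters for any of the 5 genes. The TATA box TATAAA (12.4%) has none in the Rgs16 and Rgs2 windows and matches in both Rgs3 windows.

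Of the 9 tested genes Rgs16 had the largest rise with LPS in both lines. It stood at 2.54 and 2.13 TPM in resting shC cells and at 23.9 TPM in the stimulated shC library. In shGIV cells it stood at 15.7, 12.0 and 11.9 TPM at rest and at 77.1, 75.1 and 71.7 TPM with LPS. No group overlapped another, and the 4 groups ran in the order resting shC, resting shGIV, stimulated shC and stimulated shGIV. The log2 difference of TPM + 1 with LPS was 2.90 ± 0.17 (SE) in shC and 2.42 ± 0.11 in shGIV cells, a fold of 7.48 and 5.37. The ratio of mean TPM, without the added 1, was 10.2 and 5.66. Both calls held under every alternative tried, the 10-library fit included. The log2 difference ranged from 2.81 to 2.99 in shC and from 2.36 to 2.55 in shGIV cells when 1 library was left out.

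Rgs1, a small RGS protein of lymphoid and myeloid cells that dampens chemokine receptor signals, was the most abundant of the 10 transcripts in each of the 4 groups. The gene (ENSMUSG00000026358, chromosome 1, 144242296 to 144249242, minus strand) lies 238 kb from Rgs2. It was at 183 and 179 TPM in resting and 267 TPM in stimulated shC cells. In shGIV cells it was at 162, 165 and 160.1 TPM at rest and at 269.6, 234 and 259 TPM with LPS. Every stimulated library lay above every resting one. The log2 rise was 0.56 ± 0.09 (SE) in shC and 0.64 ± 0.06 in shGIV cells, or 0.96 and 1.19 above the median of all genes.

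Rgs2 moved the other way from its neighbour. It was at 143 and 152 TPM in resting shC and at 103 TPM in stimulated shC cells. In shGIV cells it was at 135, 142 and 152 TPM at rest and at 69.9, 58.4 and 71.9 TPM with LPS. The resting lines overlapped, and the 3 stimulated shGIV libraries lay below all the others. The log2 difference was -0.52 ± 0.13 (SE) in shC and -1.09 ± 0.09 in shGIV cells, which is -0.12 and -0.55 relative to the median of all genes. With TMM scaling the value in shC cells was -0.03 and no longer called, while that in shGIV cells was -0.43 and called.

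Rgs3, which comes in short and long forms and acts on inhibitory and Gq-type alpha subunits, was among the less abundant genes (ENSMUSG00000059810, chromosome 4, 62559847 to 62704001, plus strand). It was at 13.4 and 19.9 TPM in resting shC and 11.4 TPM in stimulated shC cells, and at 26.9, 22.9 and 21.7 against 9.86, 9.44 and 11.1 TPM in shGIV cells. It fell in shGIV cells, by -1.15 ± 0.15 (SE) on the log2 scale. The value in shC cells was -0.48 ± 0.22 and was not called, and it turned on the 2 resting libraries. It was -0.75 and called without shC replicate 1, the lower of them, and -0.21 and not called without shC replicate 3. With TMM scaling it was -0.02 and not called. Rgs18, an RGS gene of platelets and other blood cells (ENSMUSG00000026357, chromosome 1, 144752683 to 144775435, minus strand), was barely detected. It was at 0.633 and 0.373 TPM in resting and 0.0929 TPM in stimulated shC cells, and at 0.959 to 1.18 against 0.0710 to 0.269 TPM in shGIV cells. The stimulated libraries were the lower ones in both lines.

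Rgs10 had the largest fall with LPS among the 7 tested RGS genes of the 10. Its product is a small RGS protein for inhibitory alpha subunits that is abundant in macrophages and microglia, where it is known for restraining inflammatory gene expression. The gene (ENSMUSG00000030844) lies on chromosome 7, from 128373621 to 128418758, on the minus strand. It was at 112 and 113 TPM in resting and at 35.4 TPM in stimulated shC cells. In shGIV cells it was at 141, 142 and 154 TPM at rest and at 33.6, 33.4 and 30.7 TPM with LPS. All stimulated libraries were far below all resting ones, and the 2 lines lay close together once stimulated. The log2 fall was -1.64 ± 0.09 (SE) in shC and -2.13 ± 0.06 in shGIV cells, and 31.5% and 22.3% of the resting mean TPM was left. Under TMM scaling the falls were -1.16 and -1.47, both still called.

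Rgs14 and Rgs19 had small differences with LPS, whose call or direction depended on the scaling. Rgs14, whose product carries besides its RGS domain a GoLoco motif that holds inhibitory alpha subunits in the GDP-bound state, lies on chromosome 13 (ENSMUSG00000052087, 55369732 to 55384687, plus strand). It was at 15.1 and 20.7 TPM in resting and 25.3 TPM in stimulated shC cells, and at 18.7, 20.3 and 19.9 against 20.9, 24.6 and 21.3 TPM in shGIV cells. The rise in shC cells, 0.50 ± 0.18 (SE), was 0.28 and not called without shC replicate 1. It was likewise not called, at the same 0.50, without any 1 of the resting shGIV libraries or without shGIV replicate 1 or 3 with LPS. The call was also lost with no filter, eBayes without the trend, only the 2 groups compared, the set as a block and all 10 libraries. Of 19 alternatives 8 kept it. The value in shGIV cells was 0.17 ± 0.12, not called, and it was 0.81 and called with TMM scaling.

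Rgs19, also known as GAIP, acts on inhibitory alpha subunits and binds the trafficking adaptor GIPC (ENSMUSG00000002458, chromosome 2, 181688419 to 181693977, minus strand). It was at 80.2 and 99.7 TPM in resting and 66.5 TPM in stimulated shC cells, and at 88.2, 90.4 and 95.3 against 56.8, 64.7 and 55.3 TPM in shGIV cells. It fell by -0.42 ± 0.14 (SE) in shC and -0.63 ± 0.10 in shGIV cells, yet these values lie within 0.08 of the median of all genes and turned to 0.06 and 0.03 with TMM scaling. In shC cells the fall was -0.27 and not called without shC replicate 3 at rest, and it was also not called, at -0.42, without shGIV replicate 2 at rest. The call in shC cells was lost as well with no filter, eBayes without the trend, only the 2 groups compared and all 10 libraries. Of 19 alternatives 12 kept it.

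The beta-arrestins differed in their response to LPS. Arrb1 (ENSMUSG00000018909, chromosome 7, 99535466 to 99606771, plus strand) was at 53.9 and 58.8 TPM in resting shC cells and at 2.34 TPM in the stimulated library. In shGIV cells it was at 53.2, 54.8 and 58.5 TPM at rest and at 1.46, 2.60 and 1.57 TPM with LPS. Stimulated and resting libraries were far apart, and the 2 lines overlapped at both times. The log2 fall of TPM + 1 was -4.10 ± 0.21 (SE) in shC and -4.32 ± 0.14 in shGIV cells. It was the largest difference of the 9 tested genes in either direction. Of the resting mean TPM, without the added 1, 4.15% and 3.38% was left. Both calls held under every alternative tried, with values of -3.60 to -4.32 in shC and -3.78 to -4.45 in shGIV cells over the 3 other scalings and the 10-library fit.

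Arrb2 (ENSMUSG00000060216, chromosome 11, 70432635 to 70440828, plus strand), whose product overlaps with that of Arrb1 in function, stayed abundant. It was at 138 and 177 TPM in resting and 128 TPM in stimulated shC cells, and at 159, 153 and 152 against 114, 119 and 103 TPM in shGIV cells. The log2 difference was -0.28 ± 0.15 (SE) in shC cells, not called, and -0.46 ± 0.10 in shGIV cells, called. Relative to the median of all genes these are 0.12 and 0.08, and with TMM scaling the value in shGIV cells turned to a called rise of 0.20. In shC cells it was -0.46 and called without shC replicate 1 at rest, and -0.10 and not called without shC replicate 3. It was also called lower with quantile normalization (-0.45) and rescaling (-0.32), and was 0.21 and not called with TMM scaling.

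Ratios of TPM within a library do not change when each library is scaled by a single factor, as in TMM scaling. Quantile normalization is not of this kind. The ratio of Arrb2 to Arrb1 TPM was 2.55 and 3.02 in resting shC and 2.59 to 2.99 in resting shGIV libraries. With LPS it was 55.0 in shC and 45.9 to 78.0 in shGIV cells. Arrb1 thus made up 24.9% to 28.1% of the beta-arrestin TPM at rest in the 5 libraries and 1.27% to 2.13% with LPS in the 4.

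**Figure D2:**
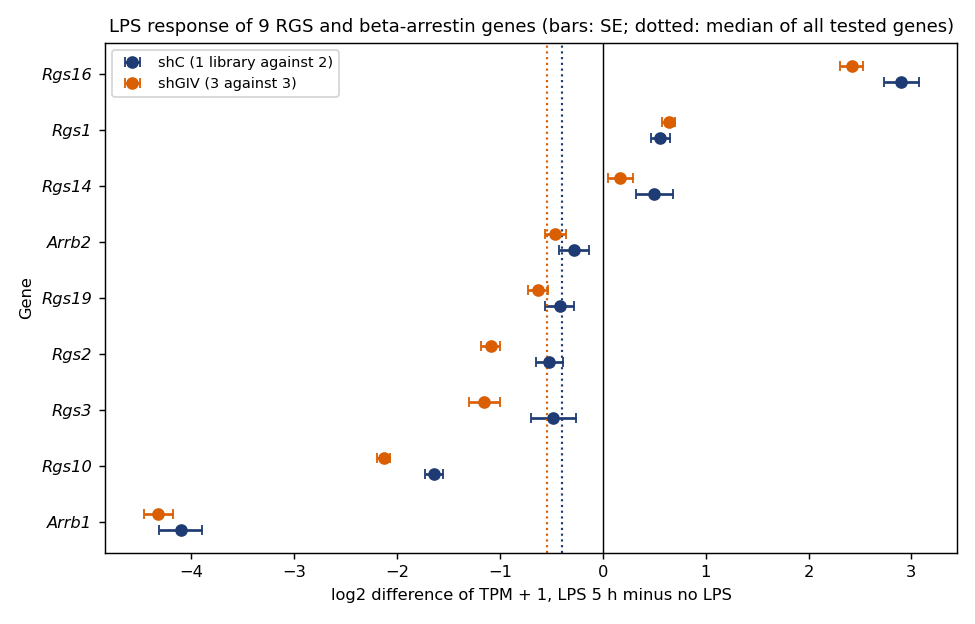
Points are log2 differences of TPM + 1 between LPS and no LPS for the 9 tested genes in shC (blue) and shGIV cells (orange), with SE bars, and dotted lines mark the median of all tested genes in each line. Rgs16 (2.90 and 2.42) and Arrb1 (-4.10 and -4.32) lie at the ends, and Rgs19 and Arrb2 lie near the dotted lines.

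Rgs1 and Rgs16 held a larger share of the RGS transcripts with LPS, and Rgs10 and Rgs2 a smaller one, in both lines. The 8 RGS genes summed to 549.8 and 587 TPM in resting shC, 532 TPM in stimulated shC, 589 to 616 TPM in resting shGIV and 500.0 to 538 TPM in stimulated shGIV libraries. Rgs1 made up 30.5% and 33.2% of this sum at rest in shC cells and 50.1% with LPS, and 26.0% to 27.7% against 46.9% to 50.1% in shGIV cells. Rgs10 went from 19.3% and 20.3% to 6.66% in shC cells and from 23.8% to 25.0% to between 5.90% and 6.67% in shGIV cells. Rgs2 went from 25.9% and 26.1% to 19.3% in shC cells, and from between 23.0% and 24.7% to between 11.7% and 13.8% in shGIV cells.

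Rgs16 was the component whose share differed most between the lines in the stimulated libraries. It made up 0.362% and 0.462% of the RGS sum in resting shC and 4.49% in stimulated shC cells, against 1.92% to 2.67% and 13.8% to 15.0% in shGIV cells. For each Rgs2 transcript there were 0.0140 and 0.0177 Rgs16 transcripts in resting shC and 0.233 in stimulated shC libraries. In shGIV cells the ratio was 0.0779 to 0.116 at rest and 0.997 to 1.29 with LPS. In the 9 libraries of the fit, all shGIV libraries lay above all shC libraries of the same time in both quantities. The shC set 2 library without LPS, kept apart, had an Rgs16 share of 2.33%, inside the range of resting shGIV cells. Its ratio of Rgs16 to Rgs2 was 0.0620, below that range.

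**Figure D3:**
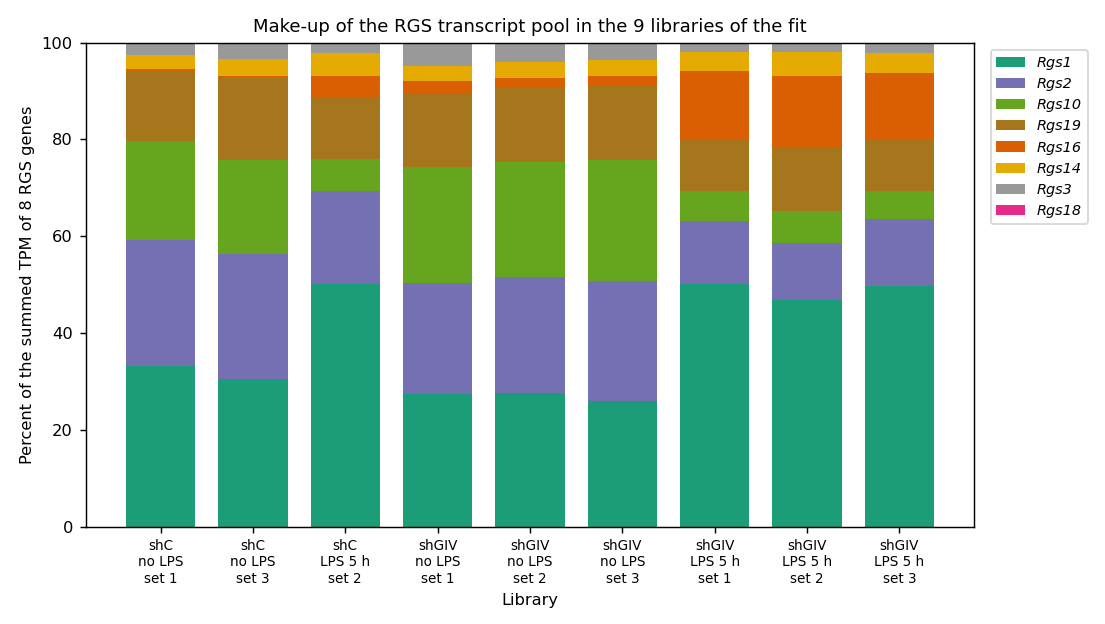
Each bar is 1 of the 9 libraries, and its colours give the percent of the summed TPM of the 8 RGS genes held by each gene. The Rgs16 share is 13.8% to 15.0% in the 3 stimulated shGIV libraries and 4.49% in the stimulated shC library, and the Rgs10 share is at most 6.67% in all 4 stimulated libraries.

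Between the lines without LPS, Rgs16 was the only 1 of the 9 tested genes past the threshold, where 1.22% of all tested genes were called (0.489% higher and 0.729% lower). Its mean was 13.2 ± 2.21 TPM (SD, n = 3) in shGIV and 2.33 ± 0.294 TPM (SD, n = 2) in shC cells. The log2 difference of TPM + 1 was 2.08 ± 0.13 (SE), a fold of 4.24, while the ratio of mean TPM, without the added 1, was 5.66. The resting shGIV mean reached 55.2% of the stimulated shC level. With only the 2 resting groups in the fit the log2 difference was the same and no longer called. Rgs10 was at 146 ± 7.26 against 112 ± 0.930 TPM, a log2 difference of 0.37 ± 0.07 that was not called. It was called with TMM scaling (0.35), quantile normalization (0.36), rescaling (0.33), the stricter filter (0.37) and without the stimulated shC library (0.37). Rgs3 was at 0.51 ± 0.17 and Rgs1 at -0.16 ± 0.07, both not called. The Rgs3 value was 0.24 without shC replicate 1 and 0.78 without shC replicate 3. The groups did not overlap for 4 of the 9 genes (Rgs1, Rgs3, Rgs10 and Rgs16), and 28.3% of all tested genes had groups that did not overlap.

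Arrb1, Arrb2, Rgs2 and Rgs19 were much alike in the resting lines, with log2 differences of -0.02 ± 0.16, -0.02 ± 0.11, -0.04 ± 0.10 and 0.03 ± 0.11 (SE). Rgs14 was at 0.14 ± 0.13. None of these 5 was called, and their groups overlapped. Rgs18, outside the test, was at 0.959 to 1.18 TPM in shGIV and 0.373 and 0.633 TPM in shC libraries, so its groups did not overlap at these very low levels.

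With LPS, Rgs16 was higher and Rgs2 lower in shGIV than in shC cells. Of all tested genes 0.890% were called higher and 4.38% lower (5.27% in either direction), and the 3 shGIV libraries stand here against a lone shC library, whose spread is taken from the other groups. Rgs16 had a log2 difference of 1.60 ± 0.16 (SE), with 74.7 ± 2.73 TPM (SD, n = 3) against 23.9 TPM. Leaving out any 1 library other than that shC library kept the call, at 1.58 to 1.63. Rgs2 had a log2 difference of -0.62 ± 0.12, with 66.8 ± 7.33 TPM (SD, n = 3) against 103 TPM. That call was lost with TMM (-0.47), quantile normalization (-0.40), rescaling (-0.51), no filter, eBayes without the trend and only the 2 groups compared (each -0.62). It was also lost with all 10 libraries and with the set as a replicate block. The same held without any 1 of the resting shGIV libraries (each -0.62), and without shGIV replicate 1 (-0.66) or 3 (-0.68) with LPS. Of 19 alternatives 6 kept the Rgs2 call.

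The other 7 tested genes lay between -0.23 ± 0.20 (Arrb1) and -0.07 ± 0.08 (Rgs1) with LPS, near the median of -0.12 over all genes, and none was called. The groups did not overlap for 7 of the 9 genes, where this was so for 64.5% of all tested genes.

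**Figure D4:**
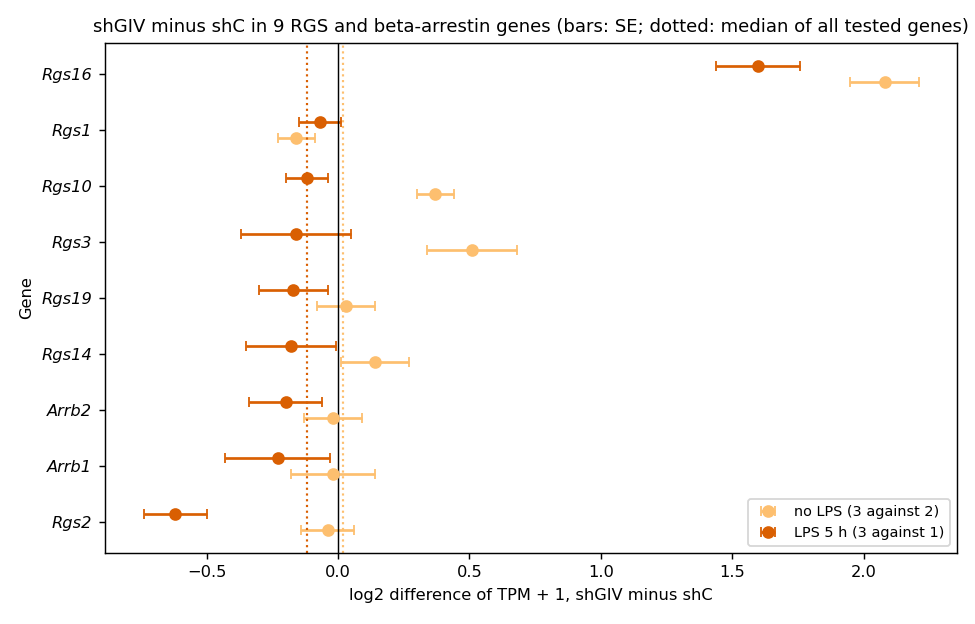
Points are log2 differences of TPM + 1 between shGIV and shC cells for the 9 tested genes without LPS (light) and with LPS (dark), with SE bars and dotted lines at the medians of all tested genes. Rgs16 stands at 2.08 and 1.60, Rgs2 at -0.04 and -0.62, and the others lie between -0.23 and 0.51.

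The difference between the LPS responses of the 2 lines was called by limma for none of the 9 genes and for 0.226% of all tested genes (0.0948% higher and 0.131% lower). At an unadjusted limma p under 0.05 stood 4 of the 9 genes and 2374 of the 13711 tested genes. The shGIV response of Rgs16 differed from the shC response by -0.48 ± 0.20 (SE) log2 units, and that of Rgs2 by -0.58 ± 0.16. The size of the Rgs16 value depends on the added 1, since its mean in resting shC cells was only 2.33 TPM. Without the added 1 its ratio of mean TPM with LPS was 10.2 in shC and 5.66 in shGIV cells. The values for Rgs3 and Rgs10 were -0.67 ± 0.27 and -0.49 ± 0.11. That of Rgs3 was -0.40 without shC replicate 1 and -0.94 without shC replicate 3 at rest. With TMM scaling Rgs16 was at -0.24, Rgs2 at -0.40, Rgs3 at -0.51 and Rgs10 at -0.32, none called. Those of the other 5 genes ran from -0.32 ± 0.21 (Rgs14) to 0.09 ± 0.11 (Rgs1), beside a median of -0.15 over all tested genes. A miss of the threshold does not show that the responses were alike, since the shC response rests on 3 libraries.

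The order of the levels shifted with LPS. In resting shC cells it ran Rgs1, Arrb2, Rgs2, Rgs10, Rgs19, Arrb1, Rgs14, Rgs3, Rgs16 and Rgs18, with Arrb2 and Rgs2, and Rgs14 and Rgs3, overlapping in TPM. In resting shGIV cells Arrb2, Rgs10 and Rgs2 followed Rgs1, each overlapping the next, and Rgs16 was again the ninth. In stimulated shGIV cells Rgs16 had moved to the third place at 74.7 TPM, where it overlapped Rgs2, which in turn overlapped Rgs19, and Arrb1 had moved to the ninth. In the stimulated shC library Rgs16 held the seventh place, next to Rgs14 at 25.3 TPM.

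Few other RGS genes were transcribed. Of 16 further genes of the family or of its binding proteins 2 passed the filter, and the other 14 reached at most 0.860 TPM (Rgs12) in the 9 libraries. Rgs11, an RGS protein that pairs with the atypical beta subunit Gnb5, was at 15.7 and 15.8 TPM in resting and 2.38 TPM in stimulated shC cells, and at 19.2 to 24.7 against 1.57 to 2.16 TPM in shGIV cells. It fell by -2.31 ± 0.18 (SE, limma adjusted p = 2.34e-05) and -3.05 ± 0.12 (adjusted p = 2.22e-07). Gnb5 fell too, by -1.20 ± 0.18 (limma adjusted p = 7.40e-04) and -1.57 ± 0.12 (adjusted p = 8.02e-06), and both genes fell under all 4 scalings. Rgs20 rose from 0.473 and 0.848 to 1.96 TPM in shC and from 0.559 to 0.765 to between 1.76 and 3.20 TPM in shGIV cells (limma adjusted p = 0.0350 and 0.00130).

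Of 6 genes for G protein-coupled receptor kinases, which mark receptors for arrestins, 3 were tested and all 3 fell with LPS in both lines, where 44.1% of all tested genes fell in shC and 59.7% in shGIV cells. Relative to the median of all genes Grk6 lay at -1.52 and -1.89, Grk2 at -0.14 and -0.33, and Grk5 at -0.04 and -0.12. Grk6 fell by -1.92 ± 0.13 (SE, limma adjusted p = 1.01e-05) in shC and -2.43 ± 0.08 (adjusted p = 1.19e-07) in shGIV cells and kept its fall under all 4 scalings. Grk2, the most abundant at 90.2 and 119 TPM in resting shC cells, fell by -0.54 ± 0.15 (limma adjusted p = 0.0142) and -0.88 ± 0.10 (adjusted p = 7.78e-05). Grk5 fell by -0.44 ± 0.16 and -0.66 ± 0.11 (limma adjusted p = 0.0453 and 5.98e-04). With TMM scaling Grk2 in shC cells (-0.06) and Grk5 in both lines (-0.10 and -0.22) were no longer called.

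Among other arrestin-fold genes all 4 tested of 7 fell in both lines, and 3 of them, Arrdc3, Txnip and Arrdc1, did so under all 4 scalings. Txnip, which binds thioredoxin, fell by -1.56 ± 0.08 (SE, limma adjusted p = 3.31e-06) and -1.48 ± 0.05 (adjusted p = 1.63e-07), and Arrdc3 by -1.67 ± 0.31 and -1.72 ± 0.21 (limma adjusted p = 0.00251 and 1.22e-04).

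Of the 8 tested RGS-homology domain genes 6 fell in each line, led by the sorting nexin Snx14 (-1.53 and -1.44, limma adjusted p = 1.14e-05 and 6.21e-07). With TMM scaling 3 fell and 1 rose in shC cells, and 4 fell and 2 rose in shGIV cells. Of the 9 tested alpha subunits 4 fell in shC cells, and 6 fell and 1 rose in shGIV cells, led by Gna12 (-1.17) and Gna11 (-1.47). With TMM scaling the balance turned to 1 lower and 4 higher in shC and 2 lower and 3 higher in shGIV cells. Of the 11 tested beta and gamma subunits 2 rose and 4 fell in each line, and Gnb4 rose most, by 1.33 ± 0.23 (SE, limma adjusted p = 0.00154) and 2.06 ± 0.15 (adjusted p = 6.87e-06). With TMM scaling 5 of these rose and 2 fell in shC and 6 rose and 3 fell in shGIV cells.

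Of the 10 receptor-independent modulators of G proteins 1 rose and 5 fell in shC cells and 2 rose and 7 fell in shGIV cells. Ccdc88c, the relative of GIV known as Daple, fell by -1.84 ± 0.24 (SE, limma adjusted p = 4.05e-04) and -1.62 ± 0.16 (adjusted p = 3.94e-05), also under all 4 scalings. With TMM scaling the balance of this list was 4 higher and 3 lower in shC and 3 higher and 2 lower in shGIV cells. Over all 47 tested related genes, 4 rose and 27 fell in shC and 6 rose and 31 fell in shGIV cells, against 15 and 14, and 15 and 17, with TMM scaling. Without TMM scaling 14.8% of all tested genes rose and 44.1% fell in shC cells, and 15.8% rose and 59.7% fell in shGIV cells. The shares with TMM scaling are not given, so the TMM counts have no background here. Nothing particular to these lists is read from either set of counts. Between the lines none of the 47 passed without LPS by limma (5 at an unadjusted p under 0.05), and with LPS Akap10 alone did, at -0.38 ± 0.08 (SE, limma adjusted p = 0.0434), a call lost under the 3 other scalings (-0.21 to -0.29). None passed for the difference between the responses (9 at an unadjusted p under 0.05). Of all 13711 tested genes 1678 lay under that unadjusted limma p without LPS and 2374 for the difference.

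The 2 tested genes whose log2(TPM + 1) followed each of the 9 tested genes most closely over the 9 libraries are given as a description, since the points share their libraries and their split by LPS. They were Asns (Pearson r = 0.9786) and Fam49a (0.9760) for Rgs16, and 5430427O19Rik (0.9939) and A230057D06Rik (0.9935) for Rgs1. For Rgs2 they were Bloc1s2 (0.9958) and Commd6 (0.9953), and for Rgs3 Chrnb1 (0.9798) and Gtf2h3 (0.9785). For Rgs10 they were the cyclin gene Ccnd1 (0.9980) and Fam53a (0.9980), and for Arrb1 the replication licensing gene Cdc6 (0.9994) and the formin gene Fhod1 (0.9991). For Rgs14 they were Gnl1 (0.9719) and Sin3b (0.9703), for Rgs19 Srcap (0.9962) and Tyrobp (0.9960), and for Arrb2 B3gat3 (0.9931) and Zfpl1 (0.9908).

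With the shC set 2 library put back among the resting controls, fewer genes were called. In shC cells with LPS Rgs16 (3.20 ± 0.57, SE) rose and Arrb1 (-3.60 ± 0.69) fell, where 3.46% of 13919 tested genes were called (3.07% higher and 0.381% lower). In shGIV cells with LPS Rgs16 (2.42 ± 0.40) rose and Arrb1 (-4.32 ± 0.49) fell, where 16.1% of all genes were called (5.64% higher and 10.4% lower). The values for Rgs2 and Rgs19 in shC cells turned to 0.63 ± 1.27 and 0.74 ± 1.25, and that for Rgs10 was -0.17 ± 1.48. Between the lines limma called 0 of the tested genes at either time, with 408 without LPS and 221 with LPS at an unadjusted p under 0.05, and 0 for the difference between the responses, with 226. The Rgs16 differences were then 2.38 ± 0.40 without LPS and 1.60 ± 0.57 with LPS.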

How the data were processed

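Ribosome-depleted stranded total RNA was sequenced in paired reads, per the labels' protocols. The deposited values are log2(TPM + 1) per gene; kallisto 0.45.0 and the build GRCm38 are named in the submitters' processing notes. The annotation used and how transcript values became gene values are not given in the sources used here, and depth per library is unknown. Groups came from sample titles. limma 3.58.1 (R 4.3.3) was fitted on 9 libraries as 1 model of 4 groups, with moderated variances and a mean-variance trend (5 residual degrees of freedom), on genes whose log2(TPM + 1) reached 1 in 2 or more libraries. The Benjamini-Hochberg adjustment ran over all tested genes in each of 5 comparisons. The fit was tested on simulated data with independent normal values and no set effect. In each comparison 100 of the 13711 genes were changed by 1 log2 unit and 100 by 2. Far more genes (58.9% and 75.5%) were called in the real LPS comparisons, so the recovered shares may not carry over to them. Of genes changed by 1 log2 unit the fit recovered 56.0% for LPS in shC and 83.0% for LPS in shGIV cells. Between the lines it recovered 80.0% without and 61.0% with LPS, and 40.0% for the difference between the responses. The 10 genes and the lists of related genes were chosen with earlier results of these data known. From each list up to 3 called genes with the largest difference, or otherwise the most abundant, could be named. Arrdc2, held by 2 identifiers, was left out. Gene positions are from GENCODE M21, and TPM values are 2 to the power of the deposited value, minus 1. Alternatives were all 10 libraries, the set as a block, no filter, a stricter filter (at least 3), a pseudocount of 0.1, quantile normalization, TMM scaling computed on TPM (30% of ratios and 5% of levels trimmed), rescaling after removal of mitochondrial genes and the 100 highest genes, eBayes without trend or robust, only the 2 groups compared, and leaving out each library. Python 3.11.15 made tables and figures. A further marker list is not reported here.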

Additional observations from a re-analysis of the deposited data

How the results depend on the processing

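Of 864 values of single genes under an alternative 737 moved by less than the spread between replicates. Called values reversed for Rgs19 with LPS under TMM scaling (0.06 in shC and 0.03 in shGIV cells), Arrb2 with LPS in shGIV cells under TMM scaling (0.20), and Rgs2 and Rgs19 with LPS in shC cells with all 10 libraries (0.63 and 0.74); the cause was not tested. Of 192 counts 148 stayed within 1.5 times. Of the 10 genes 9 were tested in each fit, and all 10 with no filter. The share of all tested genes called is known here only for the 9-library and 10-library fits. Counts under the other alternatives therefore stand without a background and are not read as a result about these genes. With all 10 libraries 2, 2, 0 and 0 of the 10 genes were called for LPS in shC cells (7 in the 9-library fit), LPS in shGIV cells (8), the lines without LPS (1) and the lines with LPS (2), and 0, 9 and 0 related genes for LPS in shC cells (31), LPS in shGIV cells (37) and the lines with LPS (1). With only the 2 groups compared 3, 0 and 1 of the 10 were called for LPS in shC cells and the lines without and with LPS, and 7 and 0 related genes for LPS in shC cells and the lines with LPS. With no filter 4 of the 10 were called for LPS in shC cells. For the lines without LPS 2 of the 10 were called with TMM scaling, quantile normalization, rescaling and the stricter filter. For the lines with LPS 1 of the 10 was called with TMM scaling, quantile normalization, rescaling, no filter, eBayes without the trend and the block. Related genes called for the lines with LPS were 2 with TMM scaling, quantile normalization, rescaling, the pseudocount of 0.1 and robust eBayes, 3 with the stricter filter and 0 with eBayes without the trend and the block. Leaving out a library gave 5 to 8 of the 10 for LPS in shC cells, 8 to 8 in shGIV cells, 1 to 2 for the lines at each time and 0 for the difference, and 27 to 31, 34 to 38, 0, 0 to 6 and 0 related genes. Same-set deviations from the group means correlated at -0.001 to 0.097. Each library with a same-set partner correlated best with its own set, a hint from the data and not from the design. Deviations from the means of so few libraries are constrained, so these values cannot decide whether the set numbers pair the libraries. With the set as a replicate block 5 of the 10 were called for LPS in shC cells, with Rgs2 (-0.37) and Rgs14 (0.35) no longer past the threshold, and the Rgs2 difference between the lines with LPS (-0.72) was not called. Without the lone shC library with LPS no value exists for LPS in shC cells, the lines with LPS or the difference, and the fit of only 2 groups gives no difference. Depth, and with it counting precision, is unknown.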

Other observations

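The shC set 2 library without LPS enters only the 10-library fit. It held the 10 transcripts at unequal distances from the other resting shC libraries. Over the 8478 genes that reached a log2(TPM + 1) of 3 in both of those, its values lay at a median distance of -2.47 log2 units. Arrb1, Arrb2 and Rgs14 lay at -1.52, -2.19 and -2.37, close to or above that median, while Rgs19 lay at -3.48, Rgs2 at -3.44, Rgs10 at -4.41 and Rgs1 at -5.12. Rgs1, the most abundant of the 10 in every other library, was at 4.22 TPM there, below Rgs2 at 12.7, Arrb1 at 19.0 and Arrb2 at 33.5 TPM. Rgs16 was at 0.786 TPM, lower than in any of the other 9 libraries. Its distance of -0.90 was nonetheless the smallest among the 9 tested genes. It made up 2.33% of the RGS sum there, against 0.462% and 0.362% in the other resting shC libraries.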
